A study of Mus musculus with 18 samples.

Results

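The 10 genes described here make, prepare and join collagen crosslinks: the lysyl oxidase Lox and its relatives Loxl1, Loxl2, Loxl3 and Loxl4, the lysyl hydroxylases Plod1, Plod2 and Plod3, the prolyl hydroxylase subunit P4ha3 and the procollagen proteinase Bmp1. They were taken by gene symbol from the table of read counts, where they are 10 of 54532 genes; the rule used no measured value. P4ha3 and Bmp1 act on collagen before crosslinking and are not crosslinking enzymes themselves. RNA was sequenced from the mandibular first molar of mice in an extraction model, in 18 libraries. Mice with periodontitis and control mice were each sampled at 0 d, 3 d and 7 d, which makes 6 groups of 3 biological replicates, and both arms had the tooth extraction in common. Per the labels, the difference between the arms is periodontitis, entered there as a genotype, and no allele is named. The sources used here do not give how periodontitis was induced, nor the strain, age or sex of the mice.

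Fibrillar collagen is made strong outside the cell by covalent bonds between neighbouring molecules. Inside the endoplasmic reticulum, lysyl hydroxylases turn chosen lysines into hydroxylysine and prolyl hydroxylases stabilise the triple helix. After secretion, Bmp1 removes the carboxy-terminal propeptide so that fibrils can form, and the copper-dependent lysyl oxidases oxidise lysine and hydroxylysine to aldehydes, which then react to form the crosslinks. In tooth-bearing bone, osteoblasts and periodontal ligament fibroblasts lay down such collagen, and a healing extraction socket fills with it as granulation tissue turns into woven bone.

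The lysyl oxidases share a catalytic domain whose copper is held by histidines. The stretch around those histidines is shown for the 4 Lox-like genes because it shows how alike their reading frames are where the enzymes work. Each line is 33 bases of the coding part of the transcript in GENCODE M21 (GRCm38), 5′ to 3′, and capitals mark the 4 histidine codons.
Loxl1: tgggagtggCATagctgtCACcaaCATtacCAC
Loxl2: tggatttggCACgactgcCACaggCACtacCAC
Loxl3: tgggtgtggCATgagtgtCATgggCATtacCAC
Loxl4: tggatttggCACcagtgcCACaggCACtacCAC
The Loxl2 and Loxl4 stretches differed at 2 of 33 bases (93.9% identity), and every other pair of these 4 differed at 8 to 12 bases. Over whole transcripts, 50-base stretches that also occur in another gene made up 0% to 0.626% of each member other than Loxl2. For Loxl2 they made up 45.0% (2410 of 5356), mostly through Gm21451, an annotated unprocessed pseudogene at 14:69390854-69480287 that held 5 to 77 counts per library, so the Loxl2 counts are uncertain to the extent that reads were split between the pair. Loxl3 shares 535 exonic bases with Htra2 on the opposite strand and Plod3 shares 529 with Znhit1, and without a stated strand setting reads in these overlaps cannot be assigned to one gene.

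The positions are those of the mouse build GRCm38, as the deposited table gives them. Lox (ENSMUSG00000024529) lies on the minus strand at 18:52516069-52529867 and Loxl1 (ENSMUSG00000032334) on the minus strand at 9:58287738-58313186. Loxl2 (ENSMUSG00000034205) lies on the plus strand at 14:69609068-69695834, and on the same chromosome Bmp1 (ENSMUSG00000022098) lies on the minus strand at 14:70474558-70520234. Loxl3 (ENSMUSG00000000693) lies on the plus strand at 6:83034173-83052562 and Loxl4 (ENSMUSG00000025185) on the minus strand at 19:42593982-42612813. Of the lysyl hydroxylases, Plod1 (ENSMUSG00000019055) lies on the minus strand at 4:147909753-147936767, Plod2 (ENSMUSG00000032374) on the plus strand at 9:92542223-92608428 and Plod3 (ENSMUSG00000004846) on the plus strand at 5:136987019-136996648. P4ha3 (ENSMUSG00000051048) lies on the plus strand at 7:100285520-100319699.

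The libraries held 14139830 to 17763605 counts in all, and the 10 genes together took 0.2503% to 0.362% of them. Single members had 686 counts (Loxl4, lowest) to 22012 counts (Lox, highest) per library, so that counting alone gave an error of at most 3.82% for any value. The spread between replicates was larger than this error except for Loxl4 in control at 3 d, where the coefficient of variation of 2.12% was below counting errors of 3.48% to 3.64%, and Plod3 in periodontitis at 0 d, where it was 1.87% against counting errors of 1.89% to 2.05%. All 10 genes passed the filter on low counts. Values are CPM, read counts brought to a common library size after scaling by the trimmed mean of M values (TMM). In bulk RNA, fewer cells of a type and less RNA per cell cannot be told apart.

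Several libraries differed in tissue content. Osteoblast markers were abundant in all of them (summed 9613 to 19537 CPM). Markers of autonomic neurons, which the labels do not name, summed to 2835 and 1661 CPM in replicates 1 and 3 of periodontitis at 0 d, to 885 and 1194 CPM in replicates 1 and 2 of periodontitis at 3 d and to 1308 CPM in replicate 2 of control at 3 d, against at most 85.9 CPM in the other 13 libraries; Chrna3 and Hand2 were at 0 in both 7 d groups. Skeletal muscle markers summed to 102, 521 and 1854 CPM in replicates 1, 2 and 3 of periodontitis at 0 d, against 51.5 to 104 CPM in control at 0 d. They summed to 291 CPM in replicate 3 of periodontitis at 3 d. Dentine and enamel markers summed to 1898 to 2519.8 CPM in periodontitis at 0 d, against 3858 to 6147 CPM in control at 0 d. Values below are given without the 5 neuron-rich libraries wherever that ended a call; without them the periodontitis arm keeps a single library at each of 0 d and 3 d, which is assumed to vary like the other groups.

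Lox was the most abundant of the 10 genes per length of transcript. Its mean level over the 18 libraries was 189 CPM per kilobase, against 92.7 for Bmp1, 67.1 for Loxl2, 65.8 for Plod2, 34.6 for Loxl1, 32.4 for Plod3, 25.8 for P4ha3, 22.6 for Plod1, 19.7 for Loxl3 and 16.8 CPM per kilobase for Loxl4. In each of the 6 groups the range of Lox lay above that of the next gene. At the low end the order changed with time: Loxl4 had the lowest mean at 0 d and 3 d in both arms and Loxl3 at 7 d. The genes also differed in how much they moved. The group with the highest mean stood 2.28-fold above the lowest for Plod2, 2.15-fold for Loxl4, 1.91-fold for Loxl3 and 1.79-fold for Lox, but only 1.25-fold for Bmp1. Loxl1 and Loxl2 moved by 1.47-fold each.

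**Figure D1:**
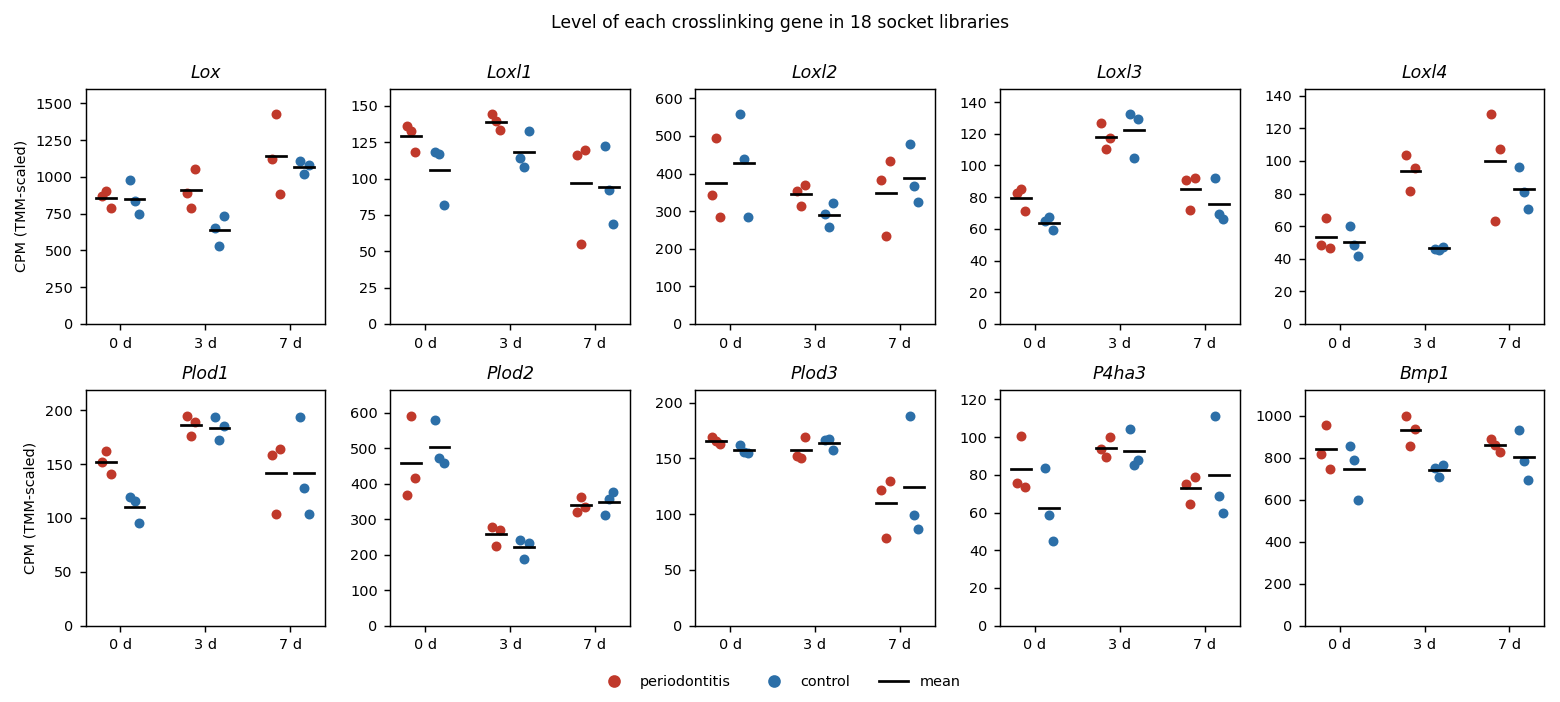
Level of each of the 10 genes in CPM (vertical axis, each panel with its own scale from 0) in every library, by group along the horizontal axis, with periodontitis left of control at 0 d, 3 d and 7 d. Points are libraries and bars are group means; Plod2 dips at 3 d in both arms and Loxl4 at 3 d stands higher in all 3 periodontitis libraries than in all 3 control libraries.

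The genes were also taken as shares of each enzyme family. Of the summed CPM per kilobase of the 5 lysyl oxidases, Lox took 56.4% ± 2.91 in periodontitis and 56.8% ± 3.47 in control at 0 d, 55.0% ± 2.8 and 50.97% ± 1.6 at 3 d, and 63.2% ± 12.1 and 62.1% ± 4.5 at 7 d (SD, n = 3 each). Loxl1 took 12.5% in periodontitis and 10.2% in control at 0 d, 12.4% and 13.8% at 3 d, and 7.96% and 7.90% at 7 d. In both arms the mean share of Lox was thus largest at 7 d, where that of Loxl1 was smallest. For Lox in periodontitis this rested mainly on replicate 2 at 7 d (76.7%). Replicates 1 and 3 had 59.8% and 53.2%, and the 0 d libraries of that arm had 53.2% to 58.8%. Loxl4 took 6.03% to 7.11% in the periodontitis libraries at 3 d, against 3.85% to 4.81% in the control libraries, with no overlap. Loxl3 took 7.50% ± 0.65 in periodontitis and 10.2% ± 0.67 in control at 3 d (SD, n = 3 each).

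Among the lysyl hydroxylases, Plod2 took 58.4% ± 5.65 in periodontitis and 64.4% ± 2.04 in control at 0 d, 43.3% ± 2.05 and 39.1% ± 2.82 at 3 d, and 58.5% ± 7.68 and 58.0% ± 11.4 at 7 d (SD, n = 3 each). The share of Plod2 was thus smallest at 3 d in each arm. The summed level of the 3 lysyl hydroxylases was 144 CPM per kilobase in periodontitis and 144 in control at 0 d, 110.2 and 104 at 3 d, and 108 and 113 at 7 d. These shares are descriptions and were not tested.

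**Figure D2:**
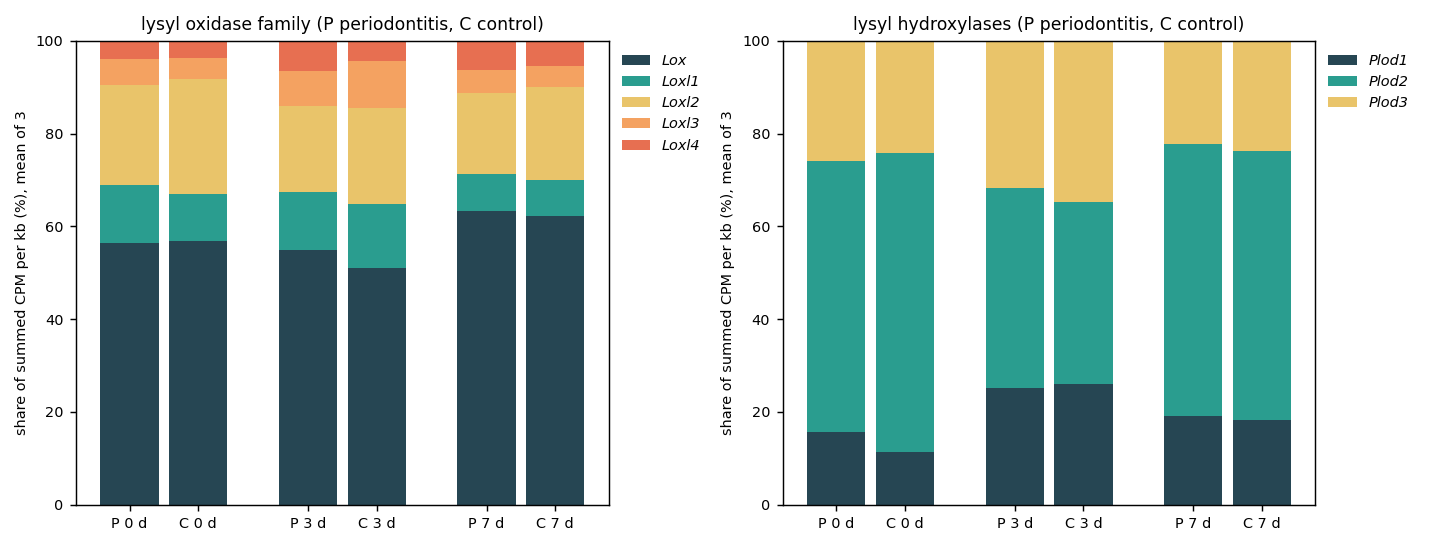
Share (%) of the summed CPM per kilobase taken by each gene of the lysyl oxidase family and of the lysyl hydroxylases, stacked, as means of 3 libraries per group, with periodontitis left of control at each day. Plod2 takes 43.3% (periodontitis) and 39.1% (control) of the lysyl hydroxylases at 3 d, its smallest shares.

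Periodontitis was set against control at each day. Loxl4, a lysyl oxidase with scavenger receptor domains, gave the largest difference among the 10 genes. At 3 d Loxl4 had 104, 81.7 and 95.5 CPM in the periodontitis libraries, against 46.01, 45.6 and 47.5 CPM in the control libraries. All 3 periodontitis libraries were above all 3 control libraries, and the control libraries were close together. The log2 fold change was 1.01 ± 0.22 (SE), 2.02-fold, with an adjusted p of 0.0939 in edgeR's quasi-likelihood test, so it did not pass the threshold of 0.05. DESeq2 gave 1.02 with an adjusted p of 0.00221. EdgeR passed the threshold with the compared groups fitted alone (adjusted p = 0.0321), with library totals (0.0431) and with no filter on low counts (0.0177). It also passed without replicate 2 of periodontitis at 7 d (0.0283). It did not pass with RLE size factors, a stricter filter, the replicate number as a block, or a neuron or muscle covariate. Nor did it pass in the other fits that left out a single library. Over all 28 alternatives the log2 fold change was 0.91 to 1.10. These include the fit without the neuron-rich libraries, which keeps a single periodontitis library at 3 d.

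At the other days Loxl4 overlapped between the arms. At 0 d it had 48.3, 65.2 and 46.3 CPM in periodontitis, against 60.2, 48.5 and 41.9 CPM in control. At 7 d it had 129, 63.1 and 107 CPM in periodontitis, against 96.1, 80.9 and 70.4 CPM in control, with replicate 2 of periodontitis below all control libraries. Over the mean of the 3 days Loxl4 rose in periodontitis by 0.46 ± 0.12 on the log2 scale (1.37-fold, adjusted p = 0.0469, edgeR), the 1 of the 10 genes called, where 4.67% of all genes were. This call sits at the threshold. It was lost in 13 of the 18 fits that left out 1 library each (0.38 to 0.54) and kept only without control replicate 1 at 0 d, control replicate 1 at 7 d, periodontitis replicate 3 at 0 d, periodontitis replicate 2 at 3 d or periodontitis replicate 2 at 7 d. It was also lost with skeletal muscle transcripts as a covariate (0.35, adjusted p = 0.204) and without the 5 neuron-rich libraries (0.58, adjusted p = 0.131).

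For Lox, the founding lysyl oxidase of the family, periodontitis libraries held 887, 789 and 1052 CPM at 3 d, against 651, 532 and 736 CPM in control. Bmp1, which removes the procollagen propeptide and also processes the Lox precursor, held 1002, 855 and 939 CPM in periodontitis at 3 d, against 753, 709.8 and 766 CPM in control. For both genes the periodontitis libraries lay above the control libraries without overlap. The log2 differences were 0.51 ± 0.18 for Lox (adjusted p = 0.349, edgeR) and 0.33 ± 0.15 for Bmp1 (adjusted p = 0.581, edgeR), so neither passed. Loxl1, which acts in elastic fibre assembly, held 139 ± 5.78 CPM in periodontitis and 118 ± 12.9 CPM in control at 3 d (SD, n = 3 each). Its log2 difference was 0.23 ± 0.25 (SE). Its lowest periodontitis value (133.1 CPM) and highest control value (132.8 CPM) lay within their counting errors of 2.16%.

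At 3 d edgeR called 0 of the 10 genes, where it called 0.134% of all genes. At an unadjusted p under 0.05 there were 3 (Loxl4, Lox and Bmp1), and DESeq2 called 1, Loxl4. The shares of all genes, here and below, are those called by edgeR at an adjusted p under 0.05. Counts of members at an unadjusted p or by DESeq2 cannot be set against these shares. The median log2 difference of the 10 genes was 0.23, against 0.00 for all genes tested. The medians of the osteoblast markers (0.36), of 11 fibrillar collagens (0.32) and of 12 elastic fibre genes (0.32) lay on the same side, with 0 genes of these lists called by edgeR; osteoblast markers summed to 10102 to 13347 CPM in periodontitis and 9613 to 11586 CPM in control. At 3 d, neutrophil markers summed to 644 to 1539 CPM in periodontitis and 2959.7 to 5976 CPM in control, macrophage markers to 684 to 835 and 1020.4 to 1234 CPM, and cartilage markers to 91.6 to 153 and 260.4 to 289 CPM. Of these, 1 neutrophil gene of 10 was called, higher in periodontitis although the sum was lower, and 0 of 8 macrophage genes; the median of the cartilage genes was 0.17, with the opposite sign to its sum. The part of these tissues in the differences was not tested.

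At 0 d the members that passed an unadjusted p under 0.05 were Plod1 and Loxl3. Plod1, which hydroxylates lysines in the helical part of collagen, held 152, 163 and 141 CPM in periodontitis, against 119.7, 116 and 95.4 CPM in control. Loxl3, a Lox-like enzyme needed for palate formation in mice, held 82.6, 84.9 and 71.2 CPM in periodontitis, against 64.9, 67.3 and 59.5 CPM in control. Neither gene overlapped between the arms. Nor did Plod3 (162.6 to 168.8 CPM in periodontitis, 155.0 to 161.7 CPM in control), whose log2 difference was only 0.07 ± 0.22 (SE). The log2 differences were 0.46 ± 0.20 for Plod1 (adjusted p = 0.145, edgeR) and 0.32 ± 0.14 for Loxl3 (adjusted p = 0.158, edgeR). EdgeR thus called 0 of the 10 genes at 0 d, where it called 8.27% of all genes; 2 passed at an unadjusted p under 0.05 and DESeq2 called 0.

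At 7 d the arms overlapped for all 10 genes. EdgeR called 0 of them, as it did of all genes (0%), 0 of the 10 passed at an unadjusted p under 0.05, and DESeq2 called 0. Lox held 1144 ± 273 CPM in periodontitis and 1068 ± 45.5 CPM in control at 7 d, and Plod2 held 339 ± 21.97 CPM in periodontitis and 349 ± 32.8 CPM in control (SD, n = 3 each). Replicate 2 of periodontitis at 7 d stood apart from its group for several members, with 54.7 CPM of Loxl1 and 78.7 CPM of Plod3, against 116 and 119.9 CPM of Loxl1 and 121 and 129.8 CPM of Plod3 in replicates 1 and 3. Its mitochondrial share (4.14%) was the highest of the 18 libraries, and its summed Col1a1, Col1a2 and Col3a1 level was 7037 CPM per kilobase, against 14781 and 14987 in the other 2. In control at 7 d, replicate 1 was the high one, with 188 CPM of Plod3, against 98.9 and 86.3 CPM in replicates 2 and 3.

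**Figure D3:**
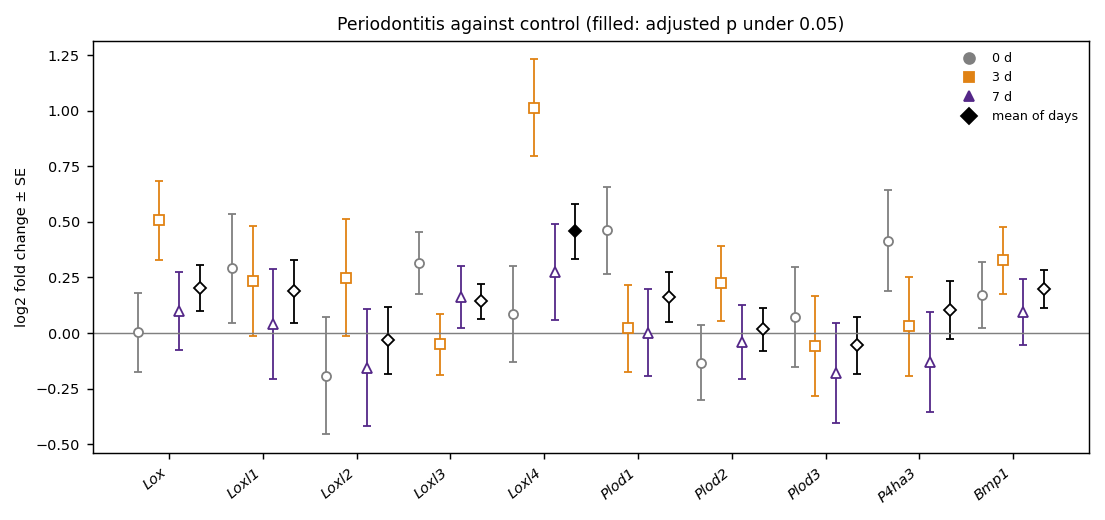
Log2 fold change of periodontitis over control with its SE (vertical axis) for each of the 10 genes at 0 d, 3 d and 7 d and for the mean of the days. Filled marks are calls at an adjusted p under 0.05; Loxl4 at 3 d (1.01) is the farthest from 0, and the mean of days for Loxl4 (0.46) is the only call.

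The days were compared within each arm. Between 0 d and 3 d, Plod2, the lysyl hydroxylase that acts on the ends of the collagen chain (the telopeptides), had the largest difference of the 10 genes in each arm. It held 279, 224 and 269.8 CPM in periodontitis at 3 d, against 367, 592 and 416 CPM at 0 d, and 241, 188 and 232 CPM in control at 3 d, against 579, 472 and 457 CPM at 0 d. In each arm every 3 d library was below every 0 d library. Plod2 fell by 0.83 ± 0.17 on the log2 scale in periodontitis (adjusted p = 0.00255, edgeR) and by 1.19 ± 0.17 in control (adjusted p = 8.34e-05, edgeR) at 3 d against 0 d. Both calls held in all 18 fits without 1 library and in the other 10 settings, with values of -1.10 to -0.61 in periodontitis and -1.26 to -1.06 in control.

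Plod2 at 7 d lay between the other days. It held 320.4, 363 and 334 CPM in periodontitis and 313, 359 and 376 CPM in control, above all 3 d libraries and below all 0 d libraries of the same arm. In control, Plod2 rose by 0.66 ± 0.17 at 7 d against 3 d (1.58-fold, adjusted p = 0.0221, edgeR), a call lost without control replicate 2 (0.56) or 3 (0.70) at 3 d, without control replicate 2 (0.64) or 3 (0.61) at 7 d and without the neuron-rich libraries (0.54). In periodontitis the same difference was 0.40 ± 0.17 (adjusted p = 0.143, edgeR). At 7 d against 0 d, Plod2 fell by 0.53 ± 0.17 in control (adjusted p = 0.0197, edgeR), lost with library totals (-0.37) and without control replicate 1 at 0 d (-0.41) or at 7 d (-0.45). In periodontitis the difference was -0.43 ± 0.17, just short of the threshold (adjusted p = 0.0507, edgeR), and it was called with DESeq2, with RLE size factors and with a stricter filter on low counts, among other settings.

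Plod1 did the opposite at 3 d. It held 195, 176 and 189 CPM in periodontitis at 3 d, against 152, 163 and 141 CPM at 0 d, and 194, 172 and 186 CPM in control at 3 d, against 119.7, 116 and 95.4 CPM at 0 d. The 3 d libraries were above the 0 d libraries in both arms. Plod1 rose by 0.74 ± 0.20 in control (1.67-fold, adjusted p = 0.00864, edgeR), in every fit run (0.68 to 0.87), and its difference of 0.30 ± 0.20 in periodontitis did not pass (adjusted p = 0.305, edgeR), but was called with the compared groups alone (0.32, adjusted p = 0.0341). At 7 d it held 142 ± 33.5 CPM in periodontitis and 142 ± 46.4 CPM in control (SD, n = 3 each), with a wide spread in both. Without control replicate 1 at 7 d, edgeR called Plod1 lower in control at 7 d than at 3 d (-0.67).

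Plod3, which also adds sugars to hydroxylysine, was steady at 0 d and 3 d and lower at 7 d. It held 166 ± 3.09 CPM in periodontitis and 157 ± 3.70 CPM in control at 0 d, and 157 ± 10.1 CPM in periodontitis and 164 ± 5.33 CPM in control at 3 d (SD, n = 3 each). At 7 d it held 121, 78.7 and 129.8 CPM in periodontitis, all below the 0 d libraries. Plod3 fell by 0.59 ± 0.22 in periodontitis at 7 d against 0 d (adjusted p = 0.0480, edgeR). That call was lost in 14 of 18 fits without 1 library (-0.73 to -0.40, the smallest without periodontitis replicate 2 at 7 d); it was kept without control replicate 1, 2 or 3 or periodontitis replicate 3 at 7 d. It was also lost with library totals (-0.47), no filter (-0.59), the compared groups alone (-0.59), the muscle covariate (-0.40), the neuron covariate (-0.63) and without the neuron-rich libraries (-0.57). In control, edgeR called Plod3 lower at 7 d than at 3 d (-0.82) and than at 0 d (-0.77) only without control replicate 1 at 7 d.

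Among the lysyl oxidases, Loxl3 peaked at 3 d. It held 127, 110.3 and 117 CPM in periodontitis at 3 d, against 82.6, 84.9 and 71.2 CPM at 0 d, and 133, 105 and 129 CPM in control at 3 d, against 64.9, 67.3 and 59.5 CPM at 0 d. No 3 d library overlapped with a 0 d library in either arm. Loxl3 rose by 0.57 ± 0.14 in periodontitis (1.48-fold, adjusted p = 0.00845, edgeR) and by 0.93 ± 0.14 in control (1.91-fold, adjusted p = 0.00012, edgeR). The control call held in every fit run (0.87 to 1.07), and the periodontitis call was lost with the muscle covariate (0.59, adjusted p = 0.0521) and without the neuron-rich libraries (0.49).

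By 7 d Loxl3 held 90.9, 72.0 and 91.9 CPM in periodontitis and 92.3, 69.5 and 66.1 CPM in control, below all 3 d libraries of the same arm. Loxl3 fell by 0.68 ± 0.14 in control at 7 d against 3 d (adjusted p = 0.00804, edgeR), lost with the compared groups alone (-0.72) and without control replicate 2 (-0.63) or 3 (-0.59) at 7 d. In periodontitis the difference was -0.47 ± 0.14 (adjusted p = 0.0579, edgeR), and DESeq2 called it (adjusted p = 0.0209).

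Loxl4 was higher at 7 d than at 0 d in both arms, and in periodontitis it was already higher at 3 d. In periodontitis Loxl4 rose by 0.81 ± 0.22 at 3 d against 0 d (1.76-fold, adjusted p = 0.0139, edgeR), with every 3 d library above every 0 d library. The call was lost without periodontitis replicate 1 (0.75) or 3 (0.72) at 0 d, without periodontitis replicate 1 at 3 d (0.73) and without the neuron-rich libraries (0.58). In control Loxl4 held 46.3 ± 0.984 CPM at 3 d and 50.2 ± 9.29 CPM at 0 d (SD, n = 3 each).

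Loxl4 rose by 0.91 ± 0.22 in periodontitis at 7 d against 0 d (1.87-fold, adjusted p = 0.00449, edgeR), although replicate 2 at 7 d (63.1 CPM) was below replicate 2 at 0 d (65.2 CPM); the call was lost with the neuron covariate (0.74) and without the neuron-rich libraries (0.63). In control it rose by 0.72 ± 0.22 at 7 d against 0 d (adjusted p = 0.0144, edgeR), lost without control replicate 3 at 0 d (0.61) or replicate 1 at 7 d (0.59). In control it also rose by 0.83 ± 0.22 at 7 d against 3 d (1.78-fold, adjusted p = 0.0247, edgeR), without overlap. That call was lost without control replicate 1 (0.83), 2 (0.82) or 3 (0.85) at 3 d and without control replicate 2 (0.84) or 3 (0.93) at 7 d. It was also lost with the neuron covariate (0.75) and without the neuron-rich libraries (0.80). Over all settings the size was 0.71 to 0.93.

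Lox was lowest in control at 3 d. Control libraries held 977, 833 and 747 CPM at 0 d, 651, 532 and 736 CPM at 3 d and 1107, 1018 and 1079 CPM at 7 d. The 3 d libraries lay below all others of the arm, and the 7 d libraries above all others. Lox rose by 0.74 ± 0.18 in control at 7 d against 3 d (1.67-fold, adjusted p = 0.0175, edgeR), lost without control replicate 1 (0.75) or 2 (0.62) at 3 d, without control replicate 2 (0.77) or 3 (0.73) at 7 d and without the neuron-rich libraries (0.60). Its difference of -0.41 ± 0.18 at 3 d against 0 d in control did not pass in edgeR (adjusted p = 0.0828) and was called by DESeq2 (adjusted p = 0.0414). In periodontitis Lox held 854 ± 60.2, 909.6 ± 133 and 1144 ± 273 CPM at 0 d, 3 d and 7 d (SD, n = 3 each), and no difference between days passed (7 d against 0 d: 0.42 ± 0.18, adjusted p = 0.0697, edgeR). Periodontal ligament and fibroblast markers summed to 9500.4 to 10876 CPM in control at 7 d and 5236 to 6598 CPM in control at 3 d, and osteoblast markers to 13322 to 14732 and 9613 to 11586 CPM. Of these lists 3 of 9 and 4 of 10 genes were called higher, where 10.9% of all genes were called in either direction. The part of these tissues in the Lox change was not tested.

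Loxl1, Loxl2, P4ha3 and Bmp1 had no call between days in either arm. Loxl1 held 129 ± 9.48, 139 ± 5.78 and 97.0 ± 36.7 CPM in periodontitis at 0 d, 3 d and 7 d, against 106 ± 20.7, 118 ± 12.9 and 94.4 ± 26.8 CPM in control (SD, n = 3 each). Loxl2, a Lox-like enzyme that also crosslinks collagen IV of basement membranes, held 374 ± 109, 346 ± 29.6 and 349 ± 103 CPM in periodontitis, against 427 ± 138, 291 ± 31.8 and 389 ± 79.7 CPM in control (SD, n = 3 each). Without control replicate 3 at 0 d, edgeR called Loxl2 lower in control at 3 d than at 0 d (-0.75, against -0.55 with all libraries). P4ha3, the catalytic subunit of a collagen prolyl 4-hydroxylase, held 93.9, 89.4 and 99.97 CPM in periodontitis at 3 d, against 75.5, 101 and 73.4 CPM at 0 d. In control it held 104, 85.2 and 87.8 CPM at 3 d, against 83.5, 58.5 and 45.1 CPM at 0 d, without overlap. The control difference was 0.57 ± 0.23 (adjusted p = 0.0619, edgeR), and it passed with DESeq2, with library totals (0.70) and without control replicate 1 at 0 d (0.84), among other settings. Bmp1 held 859.9 ± 31.6 CPM in periodontitis and 805 ± 121 CPM in control at 7 d (SD, n = 3 each).

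Counted over the 10 genes, 3 were called in periodontitis at 3 d against 0 d (Loxl3 and Loxl4 higher, Plod2 lower), where 21.2% of all genes were called, and 3 in control (Loxl3 and Plod1 higher, Plod2 lower), where 34.7% were. At 7 d against 0 d, 2 were called in periodontitis (Loxl4 higher, Plod3 lower; 39% of all genes) and 2 in control (Loxl4 higher, Plod2 lower; 41.3% of all genes). At 7 d against 3 d, 0 were called in periodontitis by edgeR (4.8% of all genes; 3 at an unadjusted p under 0.05, and 1 by DESeq2) and 4 in control (Lox, Loxl4 and Plod2 higher, Loxl3 lower; 10.9% of all genes). The shares of members at 3 d or 7 d against 0 d were near or below those of all genes. The comparisons with 0 d share their 0 d libraries within an arm.

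**Figure D4:**
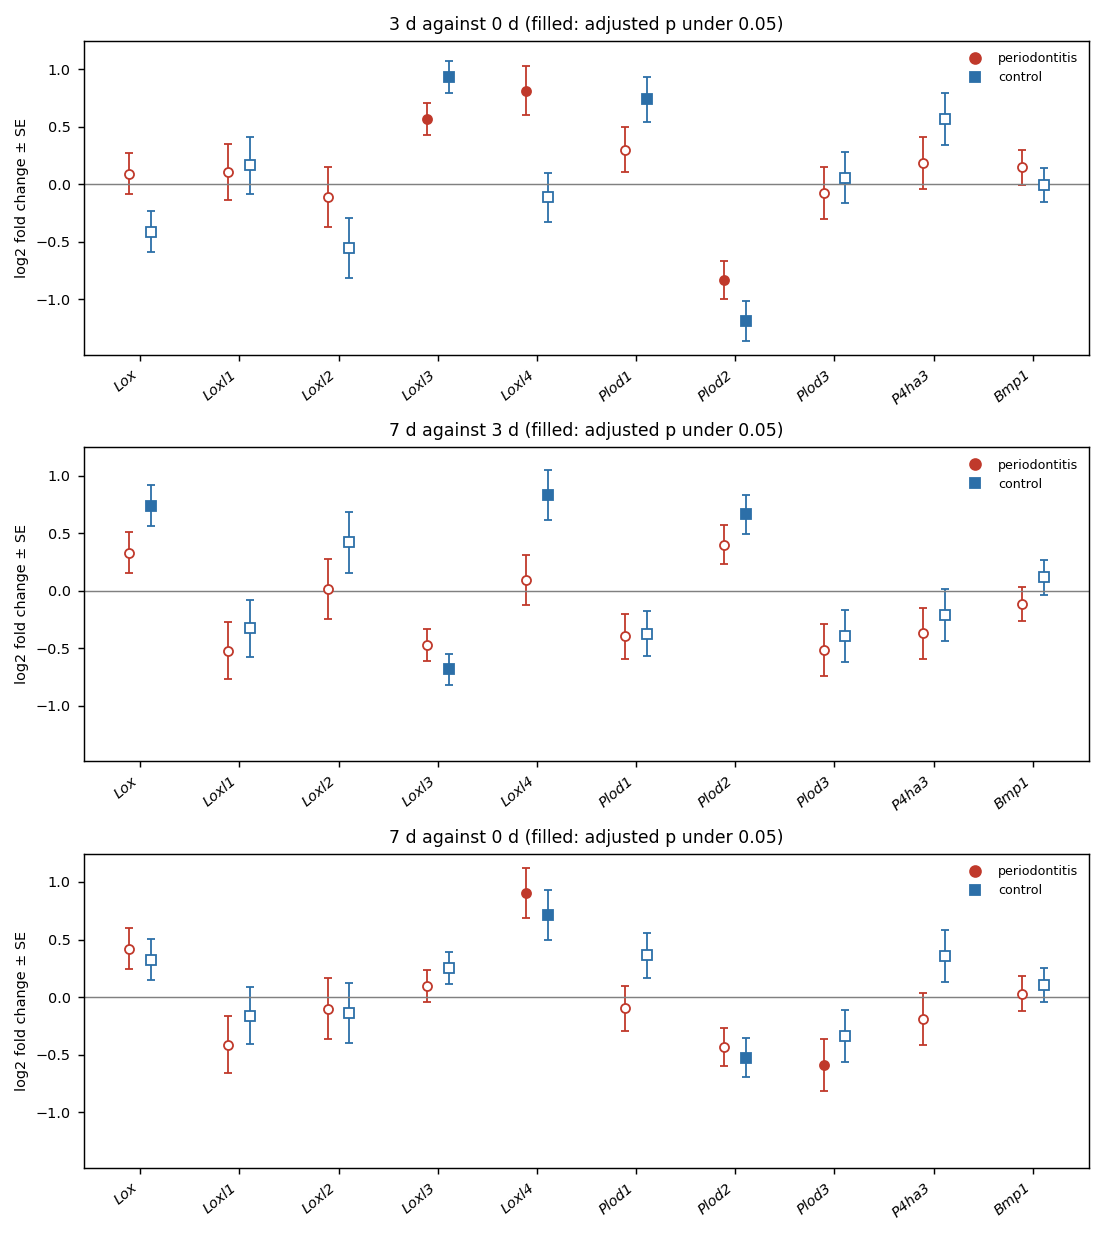
Log2 fold change between days with its SE (vertical axis) for each of the 10 genes, for 3 d over 0 d, 7 d over 3 d and 7 d over 0 d, with both arms in each panel. Filled marks are calls at an adjusted p under 0.05; Plod2 is the lowest at 3 d over 0 d in both arms and Loxl4 is the highest at 7 d over 0 d.

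A gene called in one arm and not in the other was not thereby shown to differ between the arms, so the difference in time course was tested itself. For 3 d against 0 d, edgeR called 0 of the 10 genes (0.016% of all genes), with 1 at an unadjusted p under 0.05 and 0 by DESeq2. That 1 was Loxl4, whose change was greater in periodontitis by 0.93 ± 0.31 on the log2 scale (adjusted p = 0.294), followed by Lox with 0.50 ± 0.25 (adjusted p = 0.445). For 7 d against 0 d, edgeR called 0 (0.0428% of all genes), with 0 at an unadjusted p under 0.05 and 0 by DESeq2. The largest was that of P4ha3, -0.55 (adjusted p = 0.414).

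The levels were also set against the collagens the enzymes work on, as CPM per kilobase for each 1000 CPM per kilobase of Col1a1, Col1a2 and Col3a1 together. Loxl4 had a ratio of 1.21 to 1.37 in the periodontitis libraries at 3 d, against 0.823 to 0.848 in the control libraries. The separation of Loxl4 between the arms was thus also present relative to collagen. Those of Lox and Bmp1 were not, and the ratios of Lox, Bmp1, Loxl1, Loxl2 and Plod2 overlapped at 3 d. The collagen sum itself was higher in periodontitis at 3 d (15971 to 18828 CPM per kilobase, against 12757 to 13618 in control), without overlap. The remaining genes had lower ratios in periodontitis at 3 d, without overlap, although their CPM overlapped between the arms. Loxl3 had 1.46 to 1.54 in periodontitis and 1.79 to 2.17 in control. Plod1 had 1.53 to 1.69 and 1.998 to 2.16. Plod3 had 1.79 to 2.26 and 2.56 to 2.896, and P4ha3 had 1.59 to 1.93 and 2.06 to 2.51. Plod2 had a ratio of 5.97 ± 0.409 in periodontitis and 8.69 ± 1.98 in control at 0 d, and of 2.79 ± 0.217 and 3.09 ± 0.324 at 3 d (SD, n = 3 each). Lox had a ratio of 11.1 ± 1.86 in periodontitis and 10.04 ± 1.29 in control at 3 d, and of 23.4 ± 16.4 and 18.5 ± 7.15 at 7 d (SD, n = 3 each), where periodontitis replicate 2, with its low collagen sum, had the highest ratio. The ratios were not tested.

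The profiles of the members across the 18 libraries were compared by the root mean square difference of their centred log2 CPM. Among the 45 pairs the closest were Loxl3 with Plod1 (0.16) and Plod1 with P4ha3 (0.16), and the farthest was Loxl3 with Plod2 (0.77). Loxl4 was the only member whose SD over the libraries was above 0.5, and the protein-coding genes closest to it were Adam12 (0.21) and Robo2 (0.23). These are descriptions over libraries that share groups.

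Other genes of collagen assembly were taken from 5 lists. Among 15 genes of collagen modification in the endoplasmic reticulum, 4 rose and 1 fell in periodontitis at 3 d against 0 d, and 10 rose and 1 fell in control. Of all genes, 21.2% were called in periodontitis and 34.7% in control at 3 d against 0 d, in either direction. At 7 d against 0 d these shares were 39% and 41.3%. In both arms Serpinh1, the collagen chaperone, rose (0.66 in periodontitis, adjusted p = 0.0321; 1.01 in control, adjusted p = 0.00136, edgeR), as did Fkbp14, a prolyl isomerase (0.91, adjusted p = 0.00114; 1.32, adjusted p = 3.08e-05, edgeR), and the hydroxylysine galactosyltransferases Colgalt1 and Colgalt2. P3h2, a prolyl 3-hydroxylase, fell in both (-1.11 in periodontitis, -0.79 in control). The median of the list lay 0.36 above that of all genes in periodontitis and 0.53 in control. With library totals the counts were 9 up and 1 down in periodontitis and 12 up and 1 down in control. Without the 5 neuron-rich libraries none of the 15 was called in periodontitis, and 7 rose and none fell in control. In the comparison of 7 d with 0 d, 3 rose and 2 fell in periodontitis (1 rose and none fell without those libraries) and 8 rose and 1 fell in control. Between the arms at 0 d, Colgalt2 (1.09, adjusted p = 0.00874, edgeR) and Fkbp14 (0.79, adjusted p = 0.0145, edgeR) were higher in periodontitis, and neither was called without the neuron-rich libraries.

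Of the genes that remove propeptides, 6 of 7 were tested. Tll1, a proteinase of the Bmp1 family (1.66, adjusted p = 0.0126, edgeR), and Pcolce2, which enhances its activity (1.69, adjusted p = 0.00414, edgeR), were higher in periodontitis than in control at 0 d. Bmp1 itself held 842 ± 108 CPM in periodontitis and 748 ± 133 CPM in control at 0 d (SD, n = 3 each), a log2 difference of 0.17 ± 0.15 (SE) that was not called. Pcolce2 rose at 3 d against 0 d in both arms (0.99 in periodontitis, 1.54 in control). Of 11 fibrillar collagens, Col24a1 rose (0.75) and Col2a1 fell (-1.83) in periodontitis at 3 d against 0 d, and in control Col2a1 fell (-2.39). Col2a1, the cartilage collagen, was also lower in periodontitis than in control at 0 d (-2.59, adjusted p = 0.0182, edgeR). Cartilage markers summed to 150.0 to 365 CPM in periodontitis and 936 to 1435 CPM in control at 0 d, and their part in these differences was not tested. Col1a1, Col1a2 and Col3a1 were called in no comparison. Of 12 elastic fibre genes, the microfibril gene Mfap5 was higher in periodontitis than in control at 0 d (2.23, adjusted p = 0.0101, edgeR). Eln, the elastin substrate of Lox and Loxl1, fell in periodontitis at 3 d (-0.94, adjusted p = 0.0386, edgeR) and at 7 d (-1.37, adjusted p = 0.00317, edgeR) against 0 d, while Efemp2, which binds Lox and elastin, rose at 3 d in both arms (0.73 in periodontitis, 1.29 in control). Without the 5 neuron-rich libraries, no propeptide, fibrillar collagen or elastic fibre gene was called between the arms at 0 d, and no fibrillar collagen or elastic fibre gene was called in periodontitis at 3 d against 0 d. No gene of the 5 lists was called between the arms at 3 d or 7 d.

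Hypoxia is known to raise Plod2, Lox and Loxl2 in cultured cells, so 15 genes known to respond to it were listed. Of all genes, 21.2% were called in periodontitis and 34.7% in control at 3 d against 0 d, and 39% and 41.3% at 7 d against 0 d. At 3 d against 0 d, 1 of the listed genes rose and 6 fell in periodontitis and 2 rose and 7 fell in control. At 7 d against 0 d, 1 rose and 11 fell in periodontitis and 1 rose and 10 fell in control, with list medians at -0.66 in periodontitis and -0.84 in control relative to those of all genes. Without the 5 neuron-rich libraries, 2 fell in periodontitis at 3 d and 5 at 7 d. Vegfa, the vascular growth factor, fell by 1.05 in periodontitis and by 1.96 in control at 3 d against 0 d, and the glycolytic enzyme Hk2 fell by 2.65 and by 2.88 at 7 d against 0 d. Of the members, Plod2 was called lower in both arms at 3 d against 0 d. At 7 d against 0 d it was called lower in control (-0.53) and fell just short in periodontitis (-0.43). Lox and Loxl2 were called lower in neither arm at 7 d against 0 d. The erythroid markers fell with this list: 9 of 9 were lower at 3 d than at 0 d in each arm, and neutrophil markers in 9 of 10 in periodontitis and 6 of 10 in control. Their part in the change of the list was not tested.

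Promoters were in the RefSeq table (GRCm38.p6) for 4 of the 10 genes: Plod1, Plod3, P4ha3 and Loxl4. They were searched on both strands for the core of the hypoxia response element, ACGTG or GCGTG, in the 250 bases before the start site. The promoters of Plod1 and Loxl4 are printed, with the match in capitals, because both genes were called higher between days while the hypoxia list was mostly lower. Plod3, not printed, was called lower in periodontitis at 7 d against 0 d (-0.59), a call that most fits without 1 library lost. Hypoxia as a cause of these changes was not tested.
Plod1: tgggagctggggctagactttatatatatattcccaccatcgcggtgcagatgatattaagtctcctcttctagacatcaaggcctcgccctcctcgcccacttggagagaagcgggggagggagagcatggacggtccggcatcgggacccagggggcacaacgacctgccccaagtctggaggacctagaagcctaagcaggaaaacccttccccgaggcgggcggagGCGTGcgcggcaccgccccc
Loxl4: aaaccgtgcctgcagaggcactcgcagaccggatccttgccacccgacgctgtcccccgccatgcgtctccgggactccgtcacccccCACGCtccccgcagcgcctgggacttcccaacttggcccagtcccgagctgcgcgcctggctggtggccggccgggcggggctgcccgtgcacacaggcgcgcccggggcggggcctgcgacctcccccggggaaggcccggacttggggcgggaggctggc
The windows are chr4:147936777-147937026 for Plod1 and chr19:42612807-42613056 for Loxl4, both on the minus strand. Each held 1 match, in Loxl4 on the opposite strand; Plod3 held 4 and P4ha3 held 0. Either core was present in 38.6% of the 27025 promoters in the table, so a match is common, and it describes the letters only.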

How the data were processed

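Per the labels' protocols, RNA came from a TRIzol extraction and went into NEBNext Ultra libraries. The deposited table holds the authors' raw counts of reads per gene, whole numbers that are not normalized. HISAT2, StringTie and SAMtools are named in the submitters' processing notes, together with the build mm9; no version, counting program or strand setting is given in the sources used here. The coordinates match GRCm38: 99.8% of the IDs are in GENCODE M21, 98.3% of these at the same position. Where reads from overlapping genes or near copies went is therefore unknown.

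Genes were filtered with filterByExpr in edgeR 4.0.16 (18697 of 54532 kept), scaled by TMM and fitted with 6 group means over all 18 libraries by the quasi-likelihood test (limma 3.58.1, R 4.3.3). In each of 12 comparisons p-values were adjusted over all genes tested by Benjamini-Hochberg, and genes under 0.05 were called; SEs are the log2 fold change over the square root of F. CPM were computed on TMM-scaled sizes. For log2 CPM a prior count of 2 was added. Replicates within groups differed by more than counting noise. DESeq2 1.42.0 and 8 other settings were alternatives, beside leaving out each library; leaving out the 5 neuron-rich libraries was chosen after seeing the data. The members and lists were chosen with earlier results of these data known. All 10 members were named; of the lists, called genes.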

Additional observations from a re-analysis of the deposited data

How the results depend on the processing

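No value reversed its sign in any alternative for a member called. The count of the 10 genes called between periodontitis and control was 0 at 3 d with edgeR and 1 with library totals, no filter, DESeq2 or the compared groups alone; leaving out single libraries gave 0 to 1. Over the mean of days it was 1, and 0 with the skeletal muscle covariate or without the 5 neuron-rich libraries; leaving out single libraries gave 0 to 1. At 3 d against 0 d it was 3 in periodontitis, 4 with the compared groups alone, 2 with the muscle covariate and 1 without the neuron-rich libraries (2 to 3 without single libraries), and 3 in control, 4 with library totals, no filter, the stricter filter or the neuron covariate and 5 with DESeq2 (3 to 4). At 7 d against 3 d it was 0 in periodontitis and 1 with library totals, a stricter filter (at least 1 CPM in 9 libraries) or DESeq2 (0 to 2 without single libraries), and 4 in control, 3 with the compared groups alone or the neuron covariate and 1 without the neuron-rich libraries (0 to 6; it was 0 without control replicate 2 or 3 at 7 d, 1 without control replicate 2 at 3 d and 2 without control replicate 1 or 3 at 3 d). At 7 d against 0 d it was 2 in periodontitis, 3 with DESeq2, RLE size factors or the stricter filter, and 1 with no filter, the compared groups alone, either covariate or without the neuron-rich libraries (1 to 3), and 2 in control and 5 with library totals (1 to 3). The counts between the arms at 0 d and 7 d and for the time-course differences were 0 in every setting. The cause of these shifts was not tested.

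Library totals in place of TMM moved the median of all genes by 0.12 to 0.14 on the log2 scale in the comparisons with 0 d other than that at 3 d in periodontitis, and the split of calls over all genes at 7 d against 0 d to 4513 higher and 3162 lower in periodontitis (3421 and 3879 with TMM) and to 4658 and 3143 in control (3731 and 3995 with TMM); at 3 d in control it was 3805 and 2589 (3062 and 3426 with TMM). Deviations of samples with the same replicate number had correlations between the arms of 0.66 and 0.53 for replicates 2 and 3 at 3 d. The other correlations were -0.19 to 0.18. The labels name no pairs, and the numbers were not taken as pairs in the main fit. Autonomic neuron markers at 3 d summed to 1194 CPM in periodontitis and 1308 CPM in control for replicate 2. For replicate 3 they summed to 44.5 and 60.7 CPM, and for replicate 1 to 885 and 60.3 CPM. Their part in these correlations was not tested. What replicates 2 and 3 share at 3 d was taken up through the replicate block. Shared neuron content was also taken up through the neuron covariate and the neuron-rich libraries left out. With the replicate number as a block, the call of Loxl4 over the mean of days was 0.46, the count of members called in control at 3 d against 0 d was 4 and the other counts did not move; over all genes, calls between the arms were 53 at 3 d and 2 at 7 d, against 25 and 0 without the block.

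Counting errors of the members were at most 3.82%, and no test of depth was made. P-values measure the spread between the deposited replicates. The arms differ in tissue content at 0 d. The part of neurons and muscle in the differences between the arms was tested only through the covariates and the libraries left out. That of tooth tissue was not tested. Erythroid markers (1760 to 2237 CPM in periodontitis, 6145 to 7463 CPM in control) and neutrophil markers (2351 to 8853 and 9367 to 18581 CPM) also did not overlap at 0 d. Their part was not tested either.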
